A study of Homo sapiens with 6 samples.

Results

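Nuclear receptor coactivators and corepressors are the proteins that hormone receptors recruit to switch target genes on or off. The 9 genes described here were chosen by name: NCOA1, NCOA2, NCOA3, NCOA4, NCOA7, NCOR1, EP300, CREBBP and KDM1A. Every probe set that the platform annotation paired with 1 of them alone was taken, which gave 19 of the 54613 probe sets tested, for 7 of the 9 genes. NCOA3 and NCOR1 had no probe set paired with them in that annotation and were not analysed here. The samples were total RNA from LNCaP, an androgen-responsive human prostate cancer cell line. Cells in 1 group had been treated with siRNA to PCARNEQ, a non-coding RNA (siPCARNEQ), and those in the control group with siRNA to EGFP (siEGFP), the gene of a jellyfish fluorescent protein with no human counterpart. Each group had 3 single-colour Affymetrix arrays, numbered 1 to 3 in the labels. Nothing in the labels says that the triplicates were separate cultures. The p-values therefore describe the spread among these arrays, and that spread may be technical. The level of PCARNEQ itself was not analysed here.

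When a steroid or thyroid receptor binds its hormone, it exposes a groove that takes up short leucine-rich motifs of p160 coactivators, the family of NCOA1, NCOA2 and NCOA3. The p160 proteins carry no strong enzyme activity towards histones of their own and bring in the related acetyltransferases EP300 and CREBBP, which open chromatin and hand over to Mediator and RNA polymerase II. Corepressors such as NCOR1 do the reverse through histone deacetylases, and KDM1A removes methyl groups from histone lysines within the CoREST complex. In prostate cells this machinery serves steroid hormone signalling, in which KDM1A has been described both as a coactivator and as a corepressor.

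Values are log2 of the deposited intensity, and a change is the siPCARNEQ mean minus the siEGFP mean. The median intensity was 131 on every array. Array 1 stood apart from arrays 2 and 3 in both groups. The SD across probe sets of its log2 difference from the others was 0.371 to 0.373 in siPCARNEQ and 0.232 to 0.239 in siEGFP, against 0.136 and 0.129 between arrays 2 and 3. The 3' minus 5' log2 difference of the ACTB control probe sets, which grows as RNA is degraded, reached 1.84 in siPCARNEQ array 1, whereas the remaining arrays ranged from 0.63 to 0.78. All 7 measured luminal prostate markers lay above the array median of 7.04, KLK3 at 13.58 in siEGFP. So did 4 of 5 fibroblast and smooth muscle, 2 of 4 neuroendocrine, 1 of 2 basal and 1 of 4 immune and endothelial markers. In the last list PECAM1 lay at 7.71 in siEGFP and PTPRC, a marker of immune cells, at 5.08. Lying above the median was thus not particular to the luminal list. The log2 of the summed luminal marker intensity was 15.85 to 15.90 in siPCARNEQ and 15.20 to 15.33 in siEGFP, and 5 of the 7 rose. The same sum was 11.10 to 11.41 in siPCARNEQ and 10.55 to 10.61 in siEGFP for 5 fibroblast and smooth muscle markers, of which COL1A1 rose and ACTA2 fell. It was 9.52 to 10.09 and 9.12 to 9.36 for 4 neuroendocrine markers, of which ENO2 rose, 7.59 to 7.77 and 7.41 to 7.56 for 2 basal markers, of which KRT14 rose, and 8.82 to 8.89 and 8.88 to 9.07 for 4 immune and endothelial markers, of which 0 passed (1 at an unadjusted limma p below 0.05). The part of these markers in the results below was not tested. In bulk RNA, fewer cells that express a gene and less of its RNA per cell cannot be told apart.

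Of the coregulators, NCOA2, CREBBP and NCOA4 were higher in siPCARNEQ cells and KDM1A was lower. The strongest rise was 0.74 on the log2 scale in NCOA2, or 1.67-fold, and KDM1A was 1.52-fold lower (n = 3 arrays per group). NCOA1, NCOA7 and EP300 had no probe set past the threshold, a Benjamini-Hochberg adjusted p below 0.05 with limma over all probe sets. At an unadjusted limma p below 0.05 there were 2 probe sets of NCOA1, 0 of NCOA7 and 0 of EP300. In all, 5 of the 19 probe sets rose, 1 fell and 13 did not pass. Among all probe sets 9.92% rose and 8.61% fell, 18.5% in either direction, against 31.6% of the coregulators' 19. Of the 19, 16 lay above the median level and 6 of those passed (37.5%), close to the 30.9% among all probe sets at or above that level. The groups did not overlap in 10 of the 19, where 37.7% of all probe sets did not overlap. The median change was 0.24 over the 19 probe sets and -0.01 over all probe sets. The count of rises depended on single arrays: it was 3 without siEGFP array 2 or array 3, and 8 without siPCARNEQ array 1. The total over all probe sets moved the same way, from 10122 to 5829 and 5870 without siEGFP array 2 or 3. That total was 13232 without siPCARNEQ array 1.

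**Figure D1:**
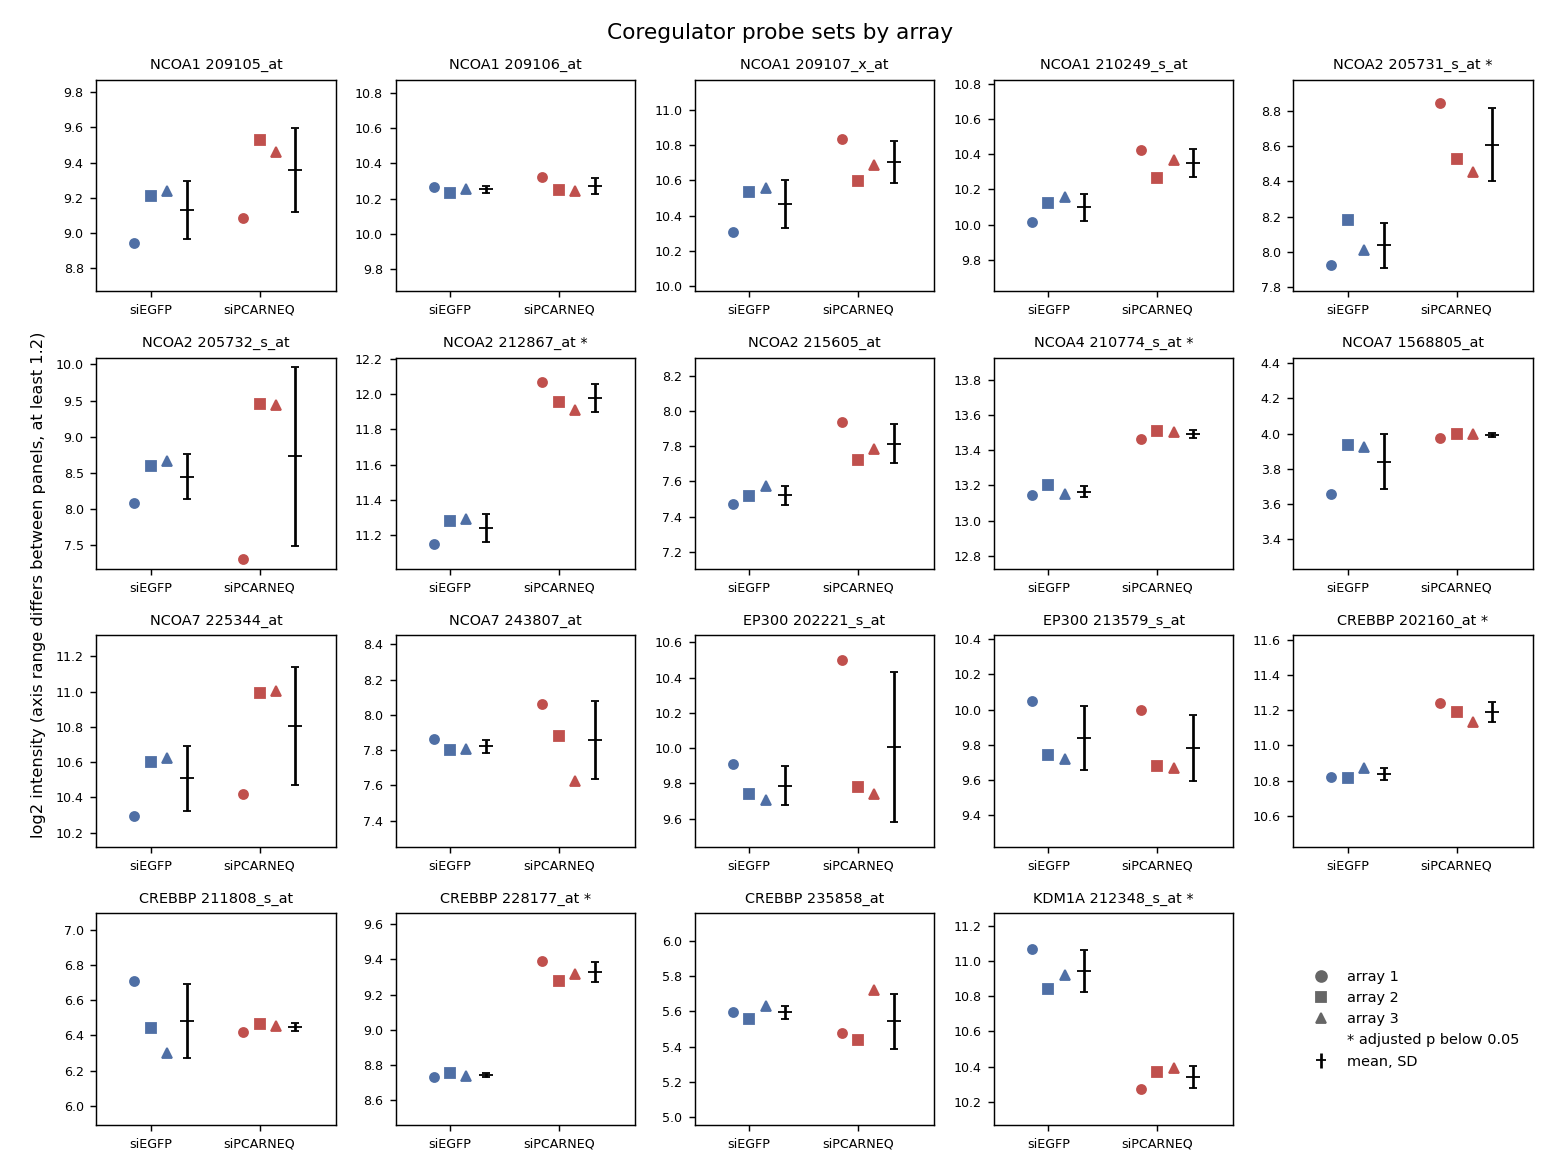
Log2 intensity (vertical axes) of each of the 19 probe sets on the 3 siEGFP (blue) and 3 siPCARNEQ (red) arrays, with circles, squares and triangles for arrays 1, 2 and 3, the mean and SD in black and an asterisk where the adjusted p was below 0.05. Groups separate clearly for NCOA2 212867_at, CREBBP 228177_at and KDM1A 212348_s_at, and siPCARNEQ array 1 lies far below its group at 7.30 in NCOA2 205732_s_at.

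Promoter sequence is shown for CREBBP and NCOA4, which rose, and KDM1A, which fell. That of NCOA2 is not shown here. Each is the 250 bases before the most upstream start that RefSeq lists on GRCh38.p14, 5′ to 3′ on the strand of the gene. RefSeq lists more than a single start for CREBBP and NCOA4, and which start the measured transcripts use was not analysed. Capitals mark matches, on either strand, to TGACG, an arm of the CREB site, to GGGCGG, a GC box, and to the palindrome CTCGCGAG.
CREBBP, chr16:3880714-3880963, minus strand: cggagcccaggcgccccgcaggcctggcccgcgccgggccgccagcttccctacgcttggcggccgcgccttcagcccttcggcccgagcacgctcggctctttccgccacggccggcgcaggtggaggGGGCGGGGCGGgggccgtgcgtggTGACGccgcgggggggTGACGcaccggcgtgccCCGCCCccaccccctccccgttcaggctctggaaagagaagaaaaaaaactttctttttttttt
NCOA4, chr10:46030624-46030873, minus strand: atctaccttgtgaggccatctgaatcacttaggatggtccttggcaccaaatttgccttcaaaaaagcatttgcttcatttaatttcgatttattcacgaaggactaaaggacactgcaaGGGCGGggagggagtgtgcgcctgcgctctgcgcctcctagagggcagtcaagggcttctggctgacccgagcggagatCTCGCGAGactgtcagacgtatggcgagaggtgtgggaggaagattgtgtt
KDM1A, chr1:23019218-23019467, plus strand: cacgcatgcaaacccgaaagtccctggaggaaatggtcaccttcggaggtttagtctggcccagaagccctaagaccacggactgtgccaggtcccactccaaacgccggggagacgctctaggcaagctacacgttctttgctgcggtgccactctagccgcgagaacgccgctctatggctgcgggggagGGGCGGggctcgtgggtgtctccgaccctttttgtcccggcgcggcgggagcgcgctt

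The CREBBP window held 2 copies of TGACG, starting 97 and 81 bases before the start, and 3 of GGGCGG, of which the pair at 121 and 116 bases overlaps by a single base. CREBBP encodes the protein named for binding CREB. The NCOA4 window held 1 GGGCGG and 1 CTCGCGAG, the latter 51 bases before the start, and the KDM1A window held 1 GGGCGG. Of 35116 windows of that length, 21.2% held TGACG, 42.6% GGGCGG and 0.874% CTCGCGAG. The motifs were chosen after the sequences were seen, so these shares are a description and test nothing. The E-box CACGTG, found in 6.35% of the windows, and AGAACA, an arm of the androgen response element found in 12.4%, were not in these 3 windows. GC content was 72.4% for CREBBP, 64.0% for KDM1A and 52.0% for NCOA4, against a median of 58.0% over the windows. A match is a run of letters and was not tested as a binding site.

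NCOA2, a p160 coactivator also called TIF2 or GRIP1, was higher in siPCARNEQ cells. In its brightest probe set, 212867_at, the siPCARNEQ arrays lay at 12.07, 11.95 and 11.91 and the siEGFP arrays at 11.15, 11.28 and 11.29. All siPCARNEQ arrays were above all siEGFP arrays, and the gap was several times the spread within either group. The change was 0.74 (SE 0.08, 95% interval 0.55 to 0.93, limma adjusted p = 0.0013). This was the 1 coregulator probe set that still passed once arrays 2 and 3 were merged into 1 replicate per group (0.78, adjusted p = 0.0422). Calls fell throughout in that setting, where 2264 of the 54613 probe sets passed against 10122 with all arrays. NCOA2 205731_s_at lay at 8.84, 8.53 and 8.45 in siPCARNEQ and 7.93, 8.18 and 8.01 in siEGFP. It rose by 0.57 (SE 0.12, limma adjusted p = 0.0197), with no overlap, and did not pass without siEGFP array 1 (0.51, adjusted p = 0.0709) or array 3 (0.56, adjusted p = 0.0794).

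The other NCOA2 probe sets did not pass with all arrays. In 215605_at the siPCARNEQ arrays lay at 7.94, 7.72 and 7.78 and the siEGFP arrays at 7.47, 7.52 and 7.58. The groups did not overlap, and the change of 0.29 (SE 0.08) just missed the threshold (limma adjusted p = 0.0521). In 205732_s_at siPCARNEQ array 1 was the lowest of all at 7.30, while siPCARNEQ arrays 2 and 3 were the highest at 9.45 and 9.43, with siEGFP at 8.09, 8.59 and 8.67. The change was 0.28 (SE 0.56, 95% interval -1.04 to 1.60, limma adjusted p = 0.793), and 0.99 (SE 0.17, adjusted p = 0.00633) without siPCARNEQ array 1. This is the array with the high ACTB 3' to 5' difference, whose part in the result was not tested. Within each array, 215605_at minus 212867_at moved from -3.72 ± 0.04 in siEGFP to -4.16 ± 0.06 in siPCARNEQ (SD, n = 3), so the dimmer probe set rose less (-0.45, SE 0.09, limma adjusted p = 0.022 over 21316 pairs of probe sets of 1 gene). It was 1 of 12 coregulator pairs to pass, where 12.9% of all pairs did. Without siPCARNEQ array 2 or any 1 siEGFP array no coregulator pair passed, and 3 passed without siPCARNEQ array 1.

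NCOA1, the founding p160 member, also called SRC-1, had 4 probe sets with changes from 0.02 to 0.25, none past the threshold. The largest change was in 210249_s_at, at 10.42, 10.27 and 10.37 in siPCARNEQ and 10.01, 10.13 and 10.16 in siEGFP. The groups did not overlap, and the change was 0.25 (SE 0.08, limma adjusted p = 0.0738). The brightest, 209107_x_at, lay at 10.83, 10.60 and 10.69 against 10.31, 10.53 and 10.56. It did not overlap either and changed by 0.24 (SE 0.10, limma adjusted p = 0.164). In 209106_at the arrays of both groups were nearly level, at 10.24 to 10.32 in siPCARNEQ and 10.23 to 10.27 in siEGFP, with a change of 0.02 (95% interval -0.14 to 0.18). In 209105_at array 1 was the lowest of each group (9.09 in siPCARNEQ and 8.94 in siEGFP) and the change was 0.23 (SE 0.14, limma adjusted p = 0.337). Without siPCARNEQ array 1 it was 0.36 (adjusted p = 0.0456).

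The p160 relatives were also compared within each array, on their brightest probe sets. NCOA2 minus NCOA1 was 1.23, 1.36 and 1.22 on the siPCARNEQ arrays and 0.84, 0.74 and 0.73 on the siEGFP arrays. All siPCARNEQ differences were above all siEGFP differences, by 0.50 on average and by 0.46 to 0.53 with any 1 array left out. The 2-sided exact permutation p was 0.1, the smallest that 3 against 3 arrays allow, and 0.2 adjusted over 2 such comparisons, so this design could not pass 0.05.

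CREBBP, the acetyltransferase also called CBP, rose in 2 of its 4 probe sets. In 228177_at the siPCARNEQ arrays lay at 9.39, 9.28 and 9.32 and the siEGFP arrays at 8.73, 8.75 and 8.74. The siEGFP arrays were almost equal and every siPCARNEQ array was higher. The change was 0.59 (SE 0.07, 95% interval 0.42 to 0.75, limma adjusted p = 0.00169). The brightest CREBBP probe set, 202160_at, lay at 11.24, 11.19 and 11.13 against 10.82, 10.81 and 10.87, with no overlap. It rose by 0.35 (SE 0.07, limma adjusted p = 0.0134), and did not pass without siEGFP array 2 (0.34, adjusted p = 0.0666). The remaining CREBBP probe sets, 211808_s_at and 235858_at, lay below the array median, and signal above background was not shown for them. They had changes of -0.04 (limma adjusted p = 0.867) and -0.05 (adjusted p = 0.778), and their differences from 202160_at did not pass the test over pairs (limma adjusted p = 0.115 and 0.079).

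EP300, the acetyltransferase closely related to CREBBP and also called p300, did not pass in either probe set. In 202221_s_at siPCARNEQ array 1 lay at 10.50, above all others, while siPCARNEQ arrays 2 and 3 at 9.78 and 9.74 were close to siEGFP at 9.91, 9.74 and 9.71. The change was 0.22 (SE 0.20, 95% interval -0.26 to 0.70, limma adjusted p = 0.532), and -0.03 (adjusted p = 0.864) without siPCARNEQ array 1. In 213579_s_at array 1 was the highest of each group (10.00 and 10.05) and the groups overlapped, with a change of -0.05 (95% interval -0.36 to 0.25). CREBBP minus EP300 in the brightest probe sets was 0.74, 1.41 and 1.40 in siPCARNEQ and 0.91, 1.08 and 1.17 in siEGFP. The groups overlapped through siPCARNEQ array 1, the lowest of all 6, and the siPCARNEQ mean was higher by 0.13. Without that array the groups did not overlap and the difference was 0.35, whereas it was 0.02 and 0.03 without siPCARNEQ array 2 or 3. The 2-sided exact permutation p over all arrays was 0.6, in a design that could not pass 0.05, so it does not show whether the acetyltransferases responded alike.

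NCOA4 is not a p160 protein. It was first described as a receptor coactivator and is best known as the receptor that carries ferritin to lysosomes. Its single probe set, 210774_s_at, lay at 13.47, 13.51 and 13.50 in siPCARNEQ and 13.15, 13.20 and 13.15 in siEGFP. Arrays within a group differed by less than 0.06 and the groups were well apart. The rise was small, 0.33 or 1.25-fold (SE 0.07, 95% interval 0.17 to 0.48, limma adjusted p = 0.0148). With one array fewer it missed the threshold without siPCARNEQ array 2 or 3 (adjusted p = 0.057 and 0.0565) and without siEGFP array 2 or 3 (0.0547 and 0.069), while the change stayed between 0.32 and 0.34.

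NCOA7, an estrogen receptor associated protein, did not pass in any of its 3 probe sets. The brightest, 225344_at, lay at 10.42, 10.99 and 11.00 in siPCARNEQ and 10.30, 10.60 and 10.62 in siEGFP. Array 1 was low in both groups, so the groups overlapped although siPCARNEQ was higher at each array number. The change was 0.30 (SE 0.18, limma adjusted p = 0.325), and 0.49 (adjusted p = 0.0196) without siPCARNEQ array 1. NCOA7 243807_at had a change of 0.03 and 1568805_at of 0.15, the latter a dim probe set with means of 3.99 in siPCARNEQ and 3.84 in siEGFP.

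KDM1A, the histone demethylase also called LSD1, was the 1 coregulator that fell. Its single probe set, 212348_s_at, lay at 10.27, 10.37 and 10.39 in siPCARNEQ and 11.07, 10.84 and 10.92 in siEGFP. Every siPCARNEQ array was below every siEGFP array. The fall was by 0.60 (SE 0.09, 95% interval -0.80 to -0.40, limma adjusted p = 0.00374), with -0.80 between arrays 1, -0.47 between arrays 2 and -0.53 between arrays 3. It passed without any 1 array (adjusted p = 0.00397 to 0.0219) but missed the threshold once arrays 2 and 3 were merged (-0.65, adjusted p = 0.0626). With those arrays merged, 2264 of all probe sets passed against 10122 with all arrays.

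**Figure D2:**
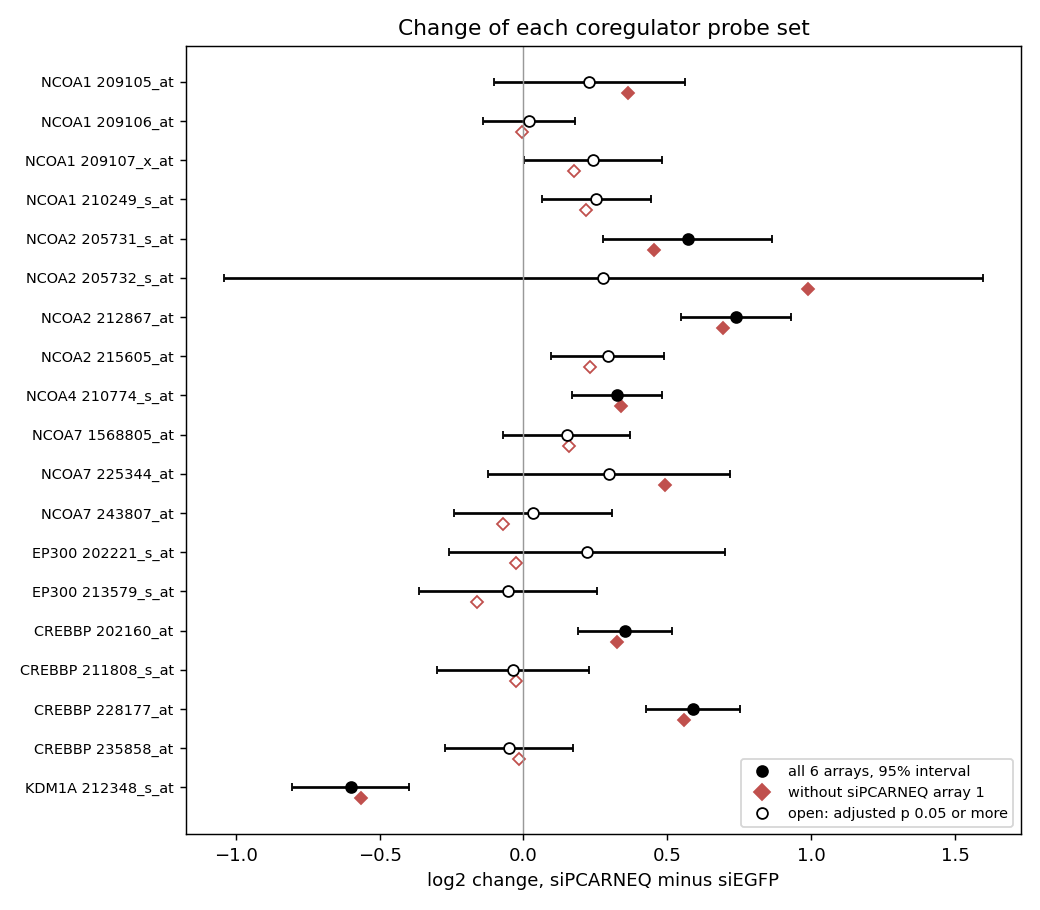
Log2 change, siPCARNEQ minus siEGFP (horizontal axis), of each probe set with all 6 arrays (circles, with 95% intervals) and without siPCARNEQ array 1 (red diamonds), filled where the adjusted p was below 0.05. Leaving that array out moved NCOA2 205732_s_at from 0.28 to 0.99 and EP300 202221_s_at from 0.22 to -0.03, and left KDM1A below 0.

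The probe sets thus differed in how far they depended on array 1. Array 1 gave the larger change in NCOA2 205731_s_at, 0.92 against 0.40 for the mean of arrays 2 and 3, and in EP300 202221_s_at, 0.59 against 0.04. In NCOA2 205732_s_at its sign was opposite, -0.78 against 0.81. CREBBP 228177_at (0.66 and 0.55) and NCOA4 (0.32 and 0.33) had similar changes in both. With arrays 2 and 3 of each group alone, 9 coregulator probe sets rose and 1 fell. Calls rose throughout in that setting, where 17104 of the 54613 probe sets passed against 10122 with all arrays. The share among probe sets above the median level was not computed there.

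**Figure D3:**
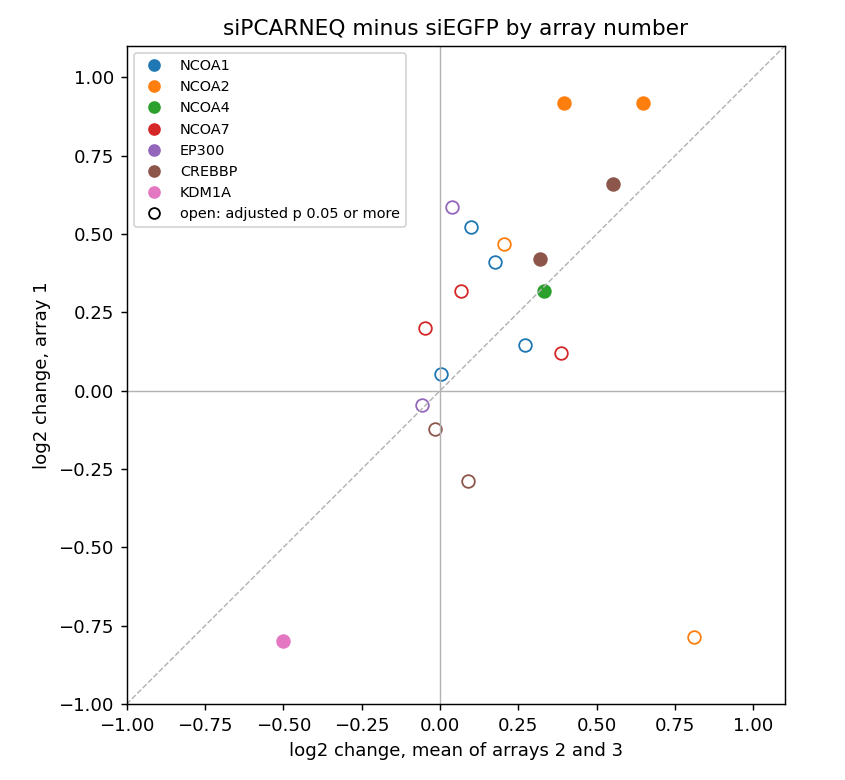
Log2 change between the arrays numbered 1 (vertical axis) against the mean change between arrays 2 and 3 (horizontal axis), 1 point per probe set coloured by gene, filled where the adjusted p was below 0.05, with the line of equal change dashed. The 6 filled points keep their sign on both axes, and NCOA2 205732_s_at lies alone at 0.81 and -0.78.

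Partners of the coregulators moved in both directions, as did all genes. The partners were taken from 5 lists with 1 probe set a gene, the brightest, and limma p adjusted over 19775 genes. Of all those genes 15.2% rose and 12.3% fell, 27.5% in either direction, with a median change of -0.01. The share among genes above the median level, where most partners lay, was not computed. The first list, called p160 partners below, held 18 enzymes and adaptors that work with p160 coactivators or, in the case of NRIP1, compete with them. Of these, 4 rose, 3 fell (5 with the replicate number as a block) and 11 did not pass. The median change was 0.08. The acetyltransferase KAT2B, also called PCAF, rose by 0.79 (SE 0.11, limma adjusted p = 0.00195) while its relative KAT2A, or GCN5, fell by 0.35 (SE 0.08, adjusted p = 0.0148). NRIP1, a corepressor that competes with p160 proteins for receptors, rose by 0.65 and the RNA helicase DDX17 by 0.34. PPARGC1A, a coactivator of mitochondrial genes, rose by 1.51 from 4.62, below the array median, and its relative PPARGC1B fell by 0.99 (SE 0.12). PRMT1, an arginine methyltransferase, fell by 0.60. NRIP1 lost its call without any 1 siEGFP array (limma adjusted p = 0.0582 to 0.0991), DDX17 without siEGFP array 2 or 3 (0.0864 and 0.0912), and KAT2A without siPCARNEQ array 2 or 3 or siEGFP array 2 (0.0532 to 0.0557). Without siEGFP array 2 or 3, 2 of the 18 rose, and 5 fell without siPCARNEQ array 1.

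Among 15 measured genes of NCOR1 and deacetylase corepressor complexes, 3 rose (5 with the replicate number as a block), 4 fell and 8 did not pass, with a median change of -0.09. LCOR, a ligand-dependent corepressor, fell by 1.11 (SE 0.13, limma adjusted p = 0.00105), and SAP30, a subunit of the SIN3 complex, by 1.01 (SE 0.13). CTBP2 rose by 0.73 (SE 0.09), the deacetylase HDAC1 by 0.31 and GPS2 by 0.29. TBL1XR1, an exchange factor of the NCOR1 complex, fell by 0.34 and BCOR by 0.30. HDAC3, the deacetylase that NCOR1 activates, had a change of -0.11 (SE 0.09, adjusted p = 0.43), and of -0.02 without siPCARNEQ array 1. HDAC1 lost its call without siEGFP array 2 or 3 (limma adjusted p = 0.0809 and 0.0662) and GPS2 without siEGFP array 2 (0.0658). BCOR lost it without siPCARNEQ array 2 or siEGFP array 2 or 3 (0.0791 to 0.12), and TBL1XR1 without any 1 array other than siPCARNEQ array 1 (0.0564 to 0.0951). Without siEGFP array 2, 1 rose and 2 fell, and 2 fell without siPCARNEQ array 2 or siEGFP array 3.

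Among 17 measured genes of the CoREST complex and other histone demethylases, 4 rose, 1 fell and 12 did not pass, with a median change of 0.12. HMG20B, a DNA-binding subunit found with KDM1A, rose by 0.78 (SE 0.12, limma adjusted p = 0.00292), and the CoREST-associated GSE1 by 0.73. The demethylases KDM5B and KDM4B rose by 0.48 and 0.55, and KDM3A fell by 0.25. The KDM4B rise was 0.37 (limma adjusted p = 0.00401) without siPCARNEQ array 1 and did not pass without any 1 siEGFP array (0.0889 to 0.0962). RCOR1, the scaffold that holds KDM1A on nucleosomes, had a change of 0.15 (SE 0.08, adjusted p = 0.226), and of 0.21 (adjusted p = 0.0486) without siPCARNEQ array 1. Without siPCARNEQ array 1, 7 genes rose, and KDM3A lost its call when any 1 of the other arrays was left out.

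Among 27 measured subunits of Mediator and its kinase module, 5 rose, 4 fell and 18 did not pass, with a median change of 0.13. MED8 rose by 0.92 (SE 0.11, limma adjusted p = 0.00119) and MED23 by 0.74 (SE 0.07), while MED20 fell by 0.73 (SE 0.07, adjusted p = 0.000492) and the kinase CDK19 by 0.88 (SE 0.19). MED1, the subunit that receptors contact, had a change of -0.11 (SE 0.10, adjusted p = 0.479), and of -0.19 to -0.04 with 1 array left out. CDK19 lost its call without siEGFP array 2 or 3 (limma adjusted p = 0.0559 and 0.0545). Leaving out 1 array gave as few as 2 rises (siPCARNEQ array 2), with 3 without siPCARNEQ array 3, siEGFP array 1 or siEGFP array 2. It gave 1 fall without siEGFP array 2 or 3 and 2 without siEGFP array 1.

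Among 22 measured nuclear receptors, the proteins the coregulators serve, 4 rose, 3 fell (5 with the replicate number as a block) and 15 did not pass, with a median change of 0.05. PPARA and PPARD, fatty acid receptors, rose by 1.44 (SE 0.07, limma adjusted p = 3.99e-05) and 1.29 (SE 0.11), and RXRA, the shared partner of many receptors, by 0.65. NR4A1 rose by 0.37. THRB, a thyroid hormone receptor, fell by 1.02 (SE 0.09, adjusted p = 0.000253), ESRRA by 0.68 and NR2C2 by 0.24. The glucocorticoid receptor NR3C1 lay at 6.35 and 6.58, below the array median, with a change of -0.22 (adjusted p = 0.173), and of -0.14 without siEGFP array 1. NR4A1 lost its call without siPCARNEQ array 3 or siEGFP array 2 or 3 (limma adjusted p = 0.0565 to 0.0691), and NR2C2 without any 1 array other than siPCARNEQ array 1 (0.0503 to 0.105).

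**Figure D4:**
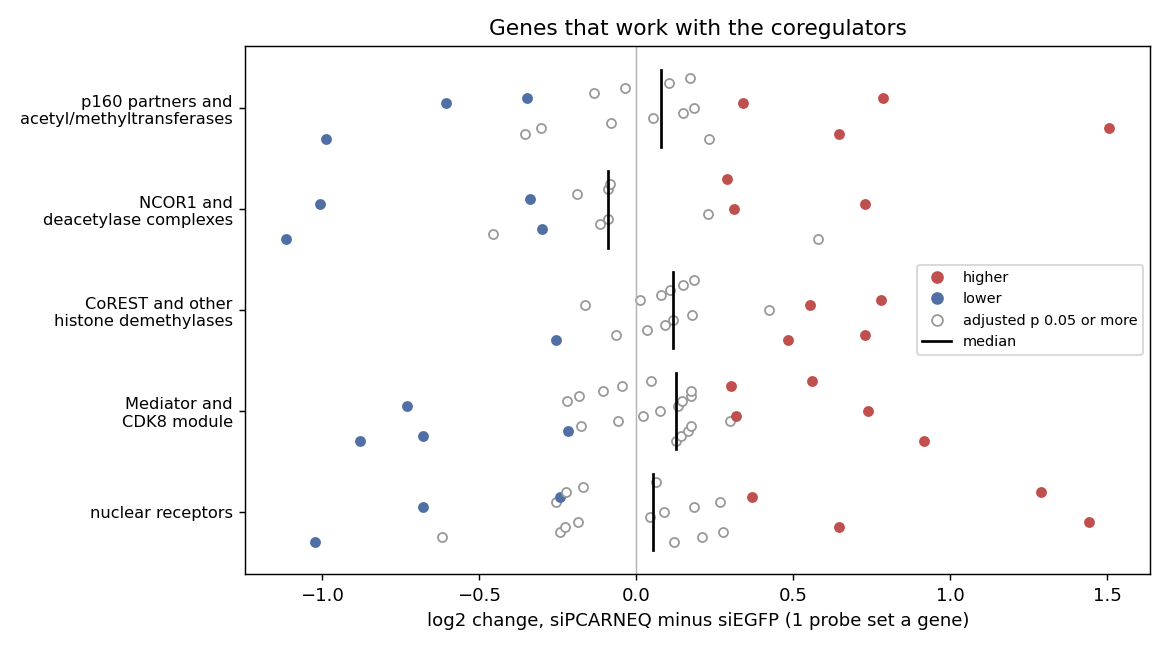
Log2 change, siPCARNEQ minus siEGFP (horizontal axis), of the measured genes of 5 partner lists, 1 point per gene (red higher, blue lower, open grey not past the threshold), with list medians as black bars and the height within a list arbitrary. Each list holds genes on both sides of 0, and the medians lie between -0.09 and 0.13.

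The genes whose values over the 6 arrays most resembled those of NCOA2 212867_at, 1 probe set a gene, were CLK3, TMEM87B and NUCB2, with Pearson r of 0.9998, 0.9997 and 0.999. For KDM1A they were SP4, ZC3H10 and TYW2, with r of 0.999, 0.998 and 0.998. All points share the same 6 arrays in 2 separated groups, so these values mostly restate the group difference and are given as a description.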

How the data were processed

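The deposited table holds linear intensity per probe set, which the authors computed with RMA, per the submitters' processing notes. Its version, the probe file and the build were not stated in any source used. After sorting, log2 values differed between arrays by 0.0049 or less, so the distributions had been equalised and differences in total RNA are out of reach. Log2 was taken with no pseudocount. The 62 Affymetrix controls were left out. Symbols came from the platform annotation and were checked against RefSeq by gene identifier. The comparison used limma 3.58.1 (lmFit, eBayes) under R 4.3.3 on 6 arrays, 2-sided, Benjamini-Hochberg adjusted over all probe sets, genes or pairs. The code was tested on simulated data with 200 changed probe sets. Exact permutation tests used SciPy 1.17.1 under Python 3.11.15, and figures matplotlib 3.10.9. The number of arrays limits the precision.

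The coregulators and partner lists were chosen with earlier results of these data known, and promoter motifs after the sequences were seen. In each partner list, up to 4 genes per direction with the smallest p were eligible to be named. HDAC3, RCOR1, MED1 and NR3C1 were singled out for their role, after their values were seen. The paralog comparison, and leaving out each array for it and for the partner genes, were added after the data were seen. Deviations from group means correlated at 0.47, 0.30 and 0.34 for arrays 1, 2 and 3 of the groups. The label numbers were taken to pair arrays. Deviations cancel out within a group, and array 1 stood apart in both groups. The values for arrays 2 and 3 therefore do not show that these pair by number, and arrays of unlike number were not correlated. The pairing is an assumption drawn from the data, and no label names a shared batch. Alternatives were this pairing as a block, leaving out each array, arrays 2 and 3 only or averaged, a filter on dim probe sets, a pseudocount of 16, a further quantile normalization, an intensity trend, leaving out _x_at and _s_at probe sets, and gene means. Items withheld from this work are not reported here.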

Additional observations from a re-analysis of the deposited data

How the results depend on the processing

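Of 254 values of the 19 coregulator probe sets under alternatives, 220 kept their direction and side of the threshold, 11 changed sign without passing in either case, 12 lost the call, 11 gained one and 0 of the called ones reversed. With the replicate number as a block, 5 coregulator probe sets rose and 1 fell, no coregulator call changed, and 5 p160 partners fell, 5 corepressor-complex genes rose and 5 receptors fell. With arrays 2 and 3 averaged, 2264 of all probe sets passed against 10122, 1 coregulator probe set rose, 0 fell and 0 pairs changed. In limma's test of the same arrays, 2 p160 partners rose, 1 corepressor-complex gene rose and 2 fell, 1 demethylase-list gene rose and 0 fell, and 2 Mediator genes rose and 1 fell. With arrays 2 and 3 only, 17104 probe sets passed, 9 coregulator probe sets rose, 3 pairs changed, 5 p160 partners fell, 5 corepressor-complex genes and 8 demethylase-list genes rose, and 7 receptors rose and 6 fell. Without _x_at and _s_at probe sets, fewer were tested: 6719 passed, 3 coregulator probe sets rose and 0 fell, since the only KDM1A probe set ends in _s_at. There 2 corepressor-complex genes fell, 2 demethylase-list genes and 2 receptors rose, and 1 Mediator gene fell. With gene means, 2 p160 partners rose and 5 fell, and 0 demethylase-list genes fell. A pseudocount of 16 gave 2 changed pairs, and the filter on dim probe sets 5 corepressor-complex rises. Fewer probe sets or arrays entered in some of these settings, and the cause of the moved counts was not tested in any of them.

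Leaving out 1 array gave 5829 to 13232 probe sets, 3 to 8 coregulator rises, 1 fall throughout and 0 to 3 changed pairs. Rises and falls ranged from 2 to 5 and 2 to 5 for p160 partners, 1 to 4 and 2 to 5 for corepressor-complex genes, 3 to 7 and 0 to 1 for the demethylase list, 2 to 5 and 1 to 5 for Mediator, and 3 to 5 and 2 to 4 for receptors. Signal over background was not used here, so dim probe sets may hold no signal.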
